A study of Mus musculus with 11 samples.

Results

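The genes described here are 42 members of the cornified envelope and the epidermal differentiation complex, taken from a list of gene symbols. Of the 42 members, 41 were among the 24421 genes counted, and *Flg* was not analysed for RNA here. The members fell into 6 groups by role: 6 cornified envelope scaffold proteins, 6 small proline-rich proteins, 17 late cornified envelope proteins (with *Crct1*), 5 fused S100 proteins, 4 crosslinking and processing enzymes, and 4 secreted or corneodesmosomal proteins. RNA-seq covered 7 mouse libraries of sorted epidermal keratinocytes: WT unwounded (n = 2), WT wounded (n = 2), labelled GRHL3 KO unwounded (n = 1) and labelled GRHL3 KO wounded (n = 2). ATAC-seq, which reads open chromatin, covered the same 4 conditions with 1 library each. The mice were C57BL/6 by the labels (C57BL/6J in the study's methods) and 8 weeks old. Per the study's methods, a Krt14-driven Cre deleted a floxed *Grhl3* in the knockout, WT littermates carried the Cre as well, and both sexes were used. Wounds were made with a 4 mm punch and collected at day 3 with a 1 mm margin. Cells with intermediate or high CD49F (the integrin encoded by *Itga6*) were kept, and cells with CD45, CD31 or TER119 were sorted out. Unwounded cells came from skin away from the wounds, and whether RNA libraries with the same replicate number share an animal is not known here. Each ATAC-seq sample pooled 4 wounds from 2 mice, per the study.

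The cornified envelope is the protein shell that replaces the plasma membrane of a keratinocyte as it becomes a dead, flat cell of the skin surface. Involucrin, envoplakin and periplakin line the membrane first, loricrin and the small proline-rich and late cornified envelope proteins are added later, and transglutaminases crosslink them. Many of these genes lie side by side in the epidermal differentiation complex, and several small proline-rich genes are also known to be switched on in injured epidermis. GRHL3 is a transcription factor known for its part in forming the skin barrier and closing wounds.

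The 7 RNA libraries held between 13497283 and 16807451 counts on genes, so a count of 3, used here as the floor of detection for a count of 0, equalled 0.178 to 0.222 CPM (counts per 1e6 counts on genes). Floors cover counting error alone. The targeted gene, *Grhl3*, was read at 122 and 83.2 CPM in WT unwounded, 109.9 and 90.02 in WT wounded, 76.2 in labelled GRHL3 KO unwounded, and 116 and 104 in labelled GRHL3 KO wounded. Its level was thus not lower in the labelled GRHL3 KO wounded libraries (log2 fold change against WT wounded 0.17, SE 0.21, edgeR adjusted p = 1). Such gene-level counts include transcript that a deletion leaves behind and so do not check the genotype, which rests on the label wherever a direction is given below. Per the study, deletion in its mice was checked by qPCR inside the floxed region and by staining wound fronts for GRHL3. Whether that covered the mice of these libraries is not known here. The labelled GRHL3 KO unwounded library stood apart, with 14854 counts on *Xist* and 0 on 4 Y-linked genes. The other 6 libraries had 3 to 32 counts on *Xist* and 2580 to 3589 on the Y-linked genes. Any comparison with that library cannot be told apart from one between sexes. Its replicate number also differed between its title and its file. In these bulk samples, fewer cells of a type and less RNA per cell cannot be told apart. Replicate 1 of WT wounded carried the most RNA of hair follicle inner root sheath and endothelial markers, given below.

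The sorted cells carried basal and early suprabasal RNA together with low levels of the latest cornified envelope genes. Basal keratins were high in each library, with *Krt14* at 12190 to 19442 CPM, and the suprabasal keratin *Krt10* at 1469 to 4259 CPM. The members together made up 0.322% to 0.397% of the counts. *Ppl*, *Evpl*, *Dmkn*, *Sprr1a*, *Sbsn* and *Scel* supplied between 81.3% and 89.8% of the members' CPM in each library. Per length, as mean CPM per kb of exon over the 7 libraries, *Sprr1a* stood first at 378, followed by *Dmkn* at 229, *Krtdap* at 205, *Ppl* at 146, *Sprr1b* at 138, *Sbsn* at 132, *Scel* at 115 and *Evpl* at 109. Involucrin (*Ivl*) was lower, at 32.6 CPM per kb, and the transglutaminase *Tgm5* at 21.0. Loricrin (*Lor*), the main protein of the mature envelope, averaged 0.930 CPM per kb and filaggrin-2 (*Flg2*) 1.0. The members' RNA thus came mostly from the early scaffold, the secreted proteins and *Sprr1a* and *Sprr1b*, and little of it from late envelope genes.

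The late cornified envelope genes lay at or near the floor in most libraries. Counts above it were highest for *Crct1* (35 in WT wounded replicate 1) and *Lce1f* (28 in labelled GRHL3 KO wounded replicate 2). Others also passed it, such as *Lce1d* with 23 in labelled GRHL3 KO wounded replicate 2 and *Lce1m* with 16 in labelled GRHL3 KO unwounded. Of the 17, 4 and 3 had any count in the WT unwounded libraries, 10 and 2 in WT wounded, 7 in labelled GRHL3 KO unwounded, and 3 and 14 in labelled GRHL3 KO wounded. Their summed level was 1.61 and 0.535 CPM in WT unwounded, 4.62 and 0.584 in WT wounded, 3.19 in labelled GRHL3 KO unwounded, and 2.69 and 10.7 in labelled GRHL3 KO wounded. The replicates of each wounded condition were thus far apart. *Lce1h*, *Lce3a* and *Sprr3* were at 0 in the 7 libraries, which allows up to 0.222 CPM, and *Lce1a1*, *Lce1a2*, *Lce1g*, *Lce1i* and *Lce3b* had fewer than 10 counts over them. The most abundant of the group, *Crct1*, a cysteine-rich neighbour of the late cornified envelope genes, had 8 and 4 counts in WT unwounded, 35 and 7 in WT wounded, 7 in labelled GRHL3 KO unwounded, and 19 and 8 in labelled GRHL3 KO wounded. In all, 33 members reached 10 counts over the 7 libraries and 30 passed the filter for testing. Reads of the near-identical *Lce* and *Sprr2* genes could be split or discarded in counting, so their levels are uncertain.

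The first comparison, WT wounded against WT unwounded, asks how the envelope program stood in keratinocytes at the edge of a healing wound. At an unadjusted P under 0.05, the crosslinking enzyme *Tgm5* and the secreted protein *Sbsn* were lower in WT wounded, and *Tchh* and the small proline-rich gene *Sprr2h* were higher. These 4 of 30 members tested stand beside 4.84% of all 14045 genes tested. None of the 30 passed an adjusted p under 0.05 in edgeR (0.0285% of all genes did), and 0 passed with DESeq2, which had 4 at an unadjusted P under 0.05 (beside 5.23% of all genes), or with edgeR's likelihood ratio test, which had 6 (beside 7.95%). The median log2 fold change of the 30 members was 0.25 beside 0.0034 for all genes, and 0.10 without fitted values for 4 members at or under the floor in both groups. Leaving out 1 library at a time moved that median between −0.08 and 0.57, so it gives no direction for the members as a group. *Tgm5* was the 1 member still called whichever of the 7 libraries was left out. With the replicate number as a block in a fit of the 4 WT libraries, *Sprr1b* (log2 fold change 0.59), *Sprr2h* (1.5), *Tchh* (0.93) and *Tgm5* (−0.85) passed an adjusted p under 0.05, 4 of 21 members tested beside 1.44% of 12674 genes. At an unadjusted P under 0.05 in that fit, *Krtdap* and *Sbsn* joined them, 6 members beside 10% of genes.

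*Tgm5* on chromosome 2 (ENSMUSG00000053675.8, 121046111 to 121085841, minus strand) encodes a transglutaminase that crosslinks envelope proteins in upper epidermis. Its level was 68.7 and 99 CPM in WT unwounded, against 45.3 and 44.1 in WT wounded, against 47.2 in labelled GRHL3 KO unwounded and 31.3 and 48.7 in labelled GRHL3 KO wounded. Both WT unwounded libraries were above the other 5. The log2 fold change on wounding was −0.88 (SE 0.23, n = 2 and 2, unadjusted P under 0.05, edgeR adjusted p = 0.449), lower in 2 of 2 wounded libraries, and it lay between −1.11 and −0.61 without any 1 library. None of the other 3 enzymes passed an unadjusted P under 0.05. *Tgm1*, the transglutaminase of the membrane, had 25.8 and 19.6 CPM in WT unwounded, against 17.1 and 23.2 in WT wounded. *Tgm3* had 27.0 and 24.0 against 20.2 and 27.6, and *Casp14*, a protease of cornifying cells, 32.3 and 43.7 against 32.4 and 27.8. The WT groups overlapped for *Tgm1*, *Tgm3* and *Casp14*. Over the 4 enzymes, 0 were higher and 1 was lower at an unadjusted P under 0.05, beside 4.84% of all genes tested. The fitted values of all 4 were below 0.

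Among the secreted and corneodesmosomal proteins, *Sbsn* was the member with an unadjusted P under 0.05 on wounding. *Sbsn* on chromosome 7 (ENSMUSG00000046056.15, 30751471 to 30756134, plus strand) encodes suprabasin. It was read at 324 and 337 CPM in WT unwounded, 249.8 and 252 in WT wounded, 407 in labelled GRHL3 KO unwounded, and 257 and 281 in labelled GRHL3 KO wounded. The 3 unwounded libraries were all above the 4 wounded ones. The log2 fold change was −0.37 (SE 0.15, edgeR adjusted p = 0.926). The unadjusted P was no longer under 0.05 without WT unwounded replicate 1 (log2 fold change −0.39) or 2 (−0.36) and without WT wounded replicate 1 (−0.36) or 2 (−0.40), so the value held and the error grew. Its neighbours *Dmkn* and *Krtdap*, which lie beside it and are described with the knockout below, had log2 fold changes of −0.19 (SE 0.17) and −0.45 (SE 0.23). *Krtdap* was at −0.64 without WT unwounded replicate 1 and −0.88 without WT wounded replicate 2. With the replicate number as a block, *Krtdap* had an unadjusted P under 0.05, and the wounded library was the lower one within each number.

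*Tchh* was higher in 1 of the 2 WT wounded libraries. It lies on chromosome 3 (ENSMUSG00000052415.5, 93442330 to 93449077, plus strand) and encodes trichohyalin, a fused S100 protein best known from the hair follicle inner root sheath. Its level was 75.5 and 64.2 CPM in WT unwounded, 296 and 54.9 in WT wounded, 55.7 in labelled GRHL3 KO unwounded, and 37.0 and 57.6 in labelled GRHL3 KO wounded. WT wounded replicate 1 stood far above the other 6 libraries, and WT wounded replicate 2 lay below both unwounded ones. The log2 fold change on wounding was 1.35 (SE 0.46, edgeR adjusted p = 0.801). It was −0.32 (SE 0.27) without WT wounded replicate 1 and 2.09 (SE 0.24) without WT wounded replicate 2. The unadjusted P was also no longer under 0.05 without WT unwounded replicate 2 (1.23, SE 0.59) and with DESeq2 (1.35, SE 0.91).

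Inner root sheath markers were, like *Tchh*, at their highest sum in WT wounded replicate 1, while the other 6 libraries did not fall in the same order. Their summed level over 8 genes was 8.13 and 2.56 CPM in WT unwounded, 33.4 and 5.06 in WT wounded, 3.56 in labelled GRHL3 KO unwounded, and 2.89 and 7.0 in labelled GRHL3 KO wounded. WT unwounded replicate 2, with more *Tchh* than WT wounded replicate 2, thus had the lowest sum. The keratin *Krt25* had 176 counts in WT wounded replicate 1, 3 in labelled GRHL3 KO unwounded and 0 in the other 5 libraries, at least 28.4-fold higher in WT wounded than in WT unwounded. *Krt25* was the 1 of 6 inner root sheath markers tested that had an unadjusted P under 0.05 on wounding. The most abundant marker, *Krt75*, had 13.9 CPM in that library and 1.38 to 5.75 in the other 6. *Padi3*, an enzyme that modifies trichohyalin, had 181 counts there and 0 to 14 elsewhere. The part of inner root sheath RNA in the *Tchh* result was not tested.

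Of *Flg2* and *Hrnr*, the filaggrin-like members of the fused S100 group, *Flg2* had replicates far apart in both wounded conditions. For *Hrnr* they were far apart in WT unwounded and labelled GRHL3 KO wounded. *Flg2* had 12 and 7 counts in WT unwounded, 117 and 0 in WT wounded, 407 in labelled GRHL3 KO unwounded, and 152 and 11 in labelled GRHL3 KO wounded. Its log2 fold change on wounding was 2.58 (SE 1.26), and it turned negative without WT wounded replicate 1, when WT wounded is at 0 and no fold is given. *Hrnr*, hornerin, had 42 and 1 counts in WT unwounded, 0 and 7 in WT wounded, 58 in labelled GRHL3 KO unwounded, and 69 and 11 in labelled GRHL3 KO wounded. Repetin (*Rptn*) had 1 and 0 counts in WT unwounded, 9 and 22 in WT wounded, 2 in labelled GRHL3 KO unwounded, and 0 and 76 in labelled GRHL3 KO wounded. Of the 4 fused S100 members tested, *Tchh* was the 1 with an unadjusted P under 0.05 on wounding in edgeR's quasi-likelihood test. DESeq2 had *Rptn* and not *Tchh*, and edgeR's likelihood ratio test had *Flg2*, *Rptn* and *Tchh*.

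The small proline-rich genes ranged from steady to variable across libraries, with *Sprr4* at a mean of 0.379 CPM and *Sprr3* at 0. *Sprr1a* (ENSMUSG00000050359.7, chromosome 3, 92483952 to 92485895, minus strand) had 389 and 231 CPM in WT unwounded, 339 and 237 in WT wounded, 339.8 in labelled GRHL3 KO unwounded, and 338 and 259.6 in labelled GRHL3 KO wounded. Its highest library was 1.68-fold above its lowest, and its log2 fold change on wounding was −0.09 (SE 0.24). *Sprr2h* (ENSMUSG00000046259.2, chromosome 3, 92385685 to 92387324, plus strand) had 2.71 and 10.7 CPM in WT unwounded, 8.05 and 28.0 in WT wounded, 0.815 in labelled GRHL3 KO unwounded, and 21.7 and 12.8 in labelled GRHL3 KO wounded. Its highest library was 34.3-fold above its lowest, and the WT groups overlapped. The log2 fold change on wounding was 1.45 (SE 0.58, edgeR adjusted p = 0.923). It was 0.79 (SE 0.58) without WT unwounded replicate 1 and 0.27 (SE 0.59) without WT wounded replicate 2, where the unadjusted P was no longer under 0.05, and 2.74 without WT unwounded replicate 2. The call was also lost in a fit of the 4 WT libraries alone (1.46, SE 0.70).

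*Sprr1b* (ENSMUSG00000048455.9, chromosome 3, 92436809 to 92438789, minus strand) had 52.1 and 133 CPM in WT unwounded, 73.0 and 207 in WT wounded, 42.7 in labelled GRHL3 KO unwounded, and 184 and 109 in labelled GRHL3 KO wounded. Its WT groups overlapped as well, with a log2 fold change of 0.63 (SE 0.42). Its direction turned with the library left out: −0.33 without WT wounded replicate 2, 0.11 without WT unwounded replicate 1, and 1.19 without WT wounded replicate 1 and 1.44 without WT unwounded replicate 2, when it was called. Still, the wounded library was the higher one within each replicate number, as it was for *Sprr2h*. With that number as a block, both passed an adjusted p under 0.05 (0.59 and 1.5). *Sprr2d* had 3 and 50 counts in WT unwounded, 1 and 59 in WT wounded, 0 in labelled GRHL3 KO unwounded, and 23 and 14 in labelled GRHL3 KO wounded. In both WT conditions replicate 2 was the higher one for *Sprr1b*, *Sprr2d* and *Sprr2h*. The injury keratin *Krt6b*, set beside them after its values were seen, was read at 39.4 and 266 CPM in WT unwounded, 233 and 1075 in WT wounded, 4.15 in labelled GRHL3 KO unwounded, and 645 and 296 in labelled GRHL3 KO wounded. *Krt6b* and *Sprr2h* put the 7 libraries in the same order, from labelled GRHL3 KO unwounded as the lowest to WT wounded replicate 2 as the highest. The injury keratins *Krt6a* and *Krt16* had the same lowest and highest libraries, but another order between them. WT unwounded replicate 2 lay above WT wounded replicate 1 for *Sprr1b*, *Sprr2d*, *Sprr2h* and *Krt6b*. Of the other wound keratinocyte markers, *Krt6a* was also higher there (1642 against 1483 CPM). In contrast, that library was the lower one for *Krt16* (2009 against 2452), *Krt17* (1641 against 2326) and *Itga5* (12.3 against 28.4). Of the 5 small proline-rich members tested, 1 was higher and 0 were lower on wounding at an unadjusted P under 0.05, beside 4.84% of all genes tested. By fitted direction alone, 4 were higher and 1 was lower.

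**Figure D1:**
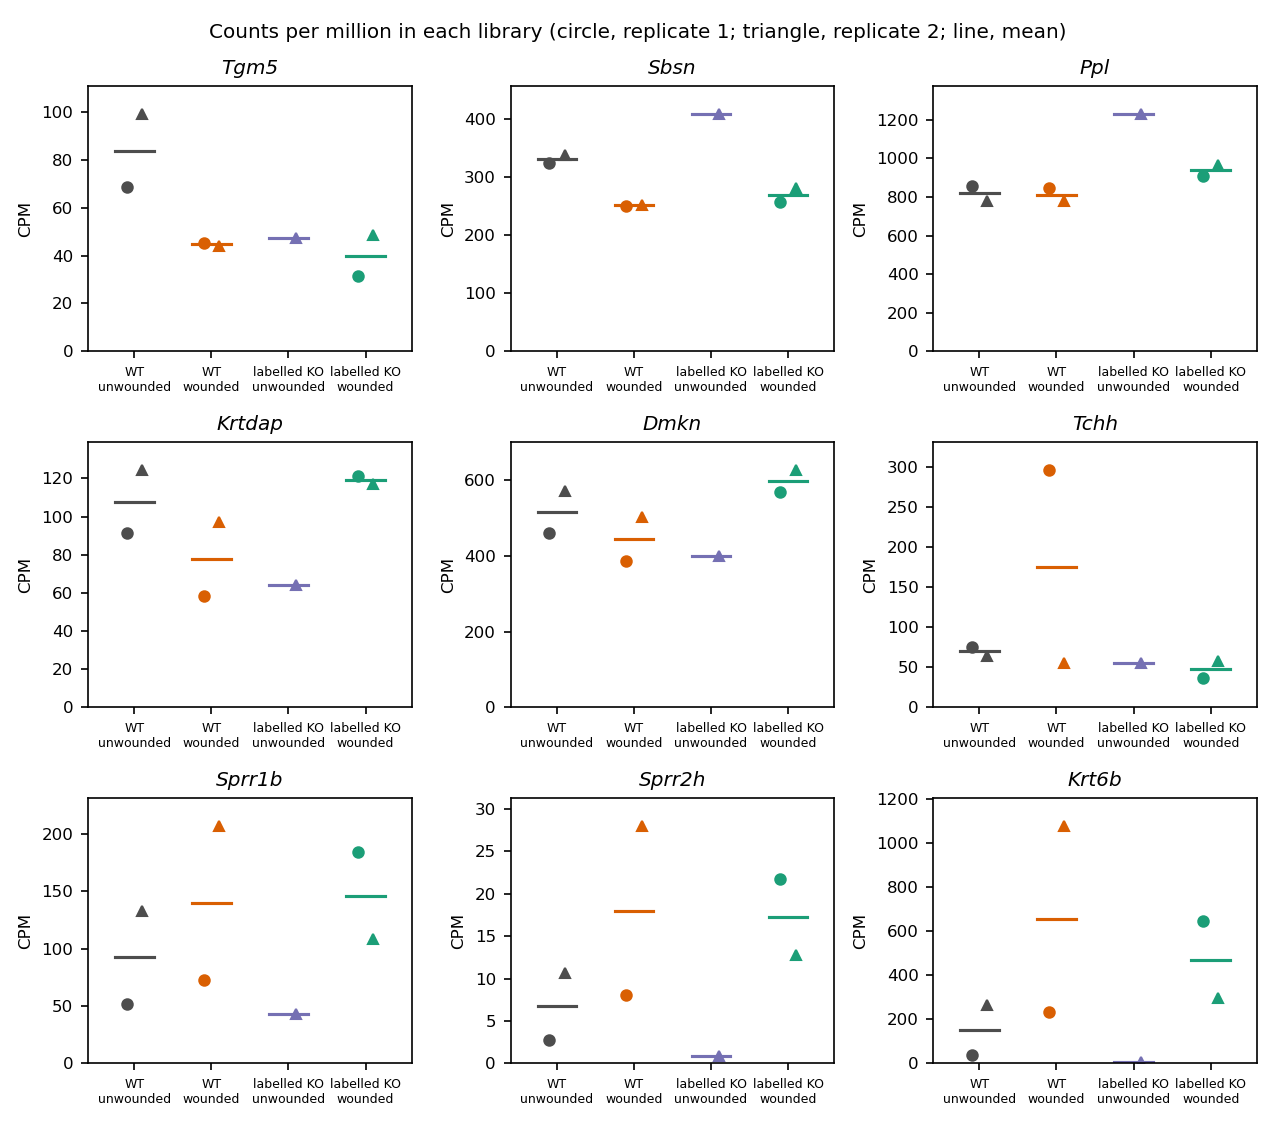
CPM (vertical axes, linear, from 0) of 8 members and the injury keratin *Krt6b* in each of the 7 libraries by condition (horizontal axes). Points are libraries and lines are condition means. *Tgm5* was higher in both WT unwounded libraries (68.7 and 99) than elsewhere, *Tchh* stood out in 1 WT wounded library (296), and *Sprr1b*, *Sprr2h* and *Krt6b* differed within each replicated condition.

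None of the 6 scaffold members had an unadjusted P under 0.05 on wounding, though *Cnfn* had without WT unwounded replicate 1 (log2 fold change 4.03). *Ppl*, periplakin, the most abundant of the group (ENSMUSG00000039457.4, chromosome 16, 5086291 to 5132421, minus strand), had 858 and 781 CPM in WT unwounded, 845 and 778 in WT wounded, 1228 in labelled GRHL3 KO unwounded, and 909.9 and 966 in labelled GRHL3 KO wounded. The WT libraries overlapped, and the log2 fold change was 0.01 (SE 0.14). *Lor* had 14 and 7 counts in WT unwounded, 31 and 14 in WT wounded, 12 in labelled GRHL3 KO unwounded, and 60 and 38 in labelled GRHL3 KO wounded. *Cnfn*, cornifelin, had 18 and 2 counts in WT unwounded, 23 and 41 in WT wounded, 11 in labelled GRHL3 KO unwounded, and 59 and 48 in labelled GRHL3 KO wounded. Each library thus held few reads of the late scaffold genes *Lor* and *Cnfn*. The other 3 scaffold members, *Ivl*, *Evpl* and *Scel*, averaged 62.6 to 695 CPM over the 7 libraries.

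Other genes of differentiation were tested beside the members in the same comparison. Of 8 suprabasal markers tested, 3 were lower in WT wounded at an unadjusted P under 0.05: *Krt1* (log2 fold change −0.66), *Krt10* (−0.45) and *Calml3* (−0.54). *Krt1* was no longer called without WT unwounded replicate 2 (−0.49) or WT wounded replicate 1 (−0.32), *Krt10* without WT unwounded replicate 1 (−0.40) or WT wounded replicate 1 (−0.25), and *Calml3* without WT unwounded replicate 1 (−0.42) or WT wounded replicate 2 (−0.42). Of 17 genes of desquamation and filaggrin processing, the protease *Asprv1* (−0.85), the protease inhibitor *Cst6* (−0.71) and the protease *Ctsd* (−0.50) were lower and *Padi3* (4.28) was higher. *Asprv1* was called whichever of the 7 libraries was left out. *Cst6* was lost without WT unwounded replicate 1 (−0.38) or WT wounded replicate 2 (−0.39), *Ctsd* without WT unwounded replicate 2 (−0.40) and *Padi3* without WT wounded replicate 1 (1.61). Of 14 transcription factors of terminal differentiation, *Zfp750* (0.42) and *Maf* (0.60) were higher and *Cebpa* (−0.38) and *Hopx* (−0.47) were lower, and each of these calls was lost without some libraries. *Maf* was −0.06 without WT wounded replicate 2 and 0.38 without WT unwounded replicate 1, and *Cebpa* −0.19 without WT unwounded replicate 2 and −0.27 without WT wounded replicate 1. Both were also lost without any 1 of the 3 labelled GRHL3 KO libraries, where the values held. *Zfp750* was lost without WT unwounded replicate 1 (0.41) or 2 (0.44) or WT wounded replicate 1 (0.38), and *Hopx* without WT unwounded replicate 1 (−0.50) or 2 (−0.44) or WT wounded replicate 2 (−0.35). Of 10 other genes of the epidermal differentiation complex tested, 0 passed in either direction. Of the wound keratinocyte markers, *Krt6a* (1.21), *Krt6b* (2.13), *Krt16* (0.64) and the fibronectin receptor subunit *Itga5* (1.2) were higher, 4 of 5 tested. These 4 rest on WT wounded replicate 2: without it none of them was called, with *Krt6a* at 0.47, *Krt6b* at 0.62, *Krt16* at 0.38 and *Itga5* at 0.80. *Krt6a* was also lost without WT unwounded replicate 1 (0.61) and *Itga5* without WT unwounded replicate 2 (0.86), and without the latter library *Krt6a* was 2.25 and *Krt6b* 4.07. Of 7 basal markers, *Krt15* (−0.40) was lower, and the call was lost without WT unwounded replicate 1 (−0.35) or WT wounded replicate 2 (−0.36).

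RNA of other cell types was low, and some of its markers were higher in WT wounded. Endothelial markers summed to 8.59 and 9.34 CPM in WT unwounded, 39.3 and 22.8 in WT wounded, 2.82 in labelled GRHL3 KO unwounded, and 17.2 and 27.6 in labelled GRHL3 KO wounded. Of 11 tested, *Pecam1*, *Cdh5*, *Kdr*, *Plvap* and *Flt1* were higher in WT wounded, and the most abundant was *Vwf*. Of these 5, *Flt1* was the 1 called whichever of the 7 libraries was left out. Without WT wounded replicate 1 the others were no longer called (*Pecam1* 1.51, *Cdh5* 2.77, *Kdr* 1.32, *Plvap* 1.74 in log2 fold change). *Pecam1* (1.58), *Cdh5* (2.61) and *Plvap* (1.93) were also lost without WT unwounded replicate 1, *Kdr* (3.21) and *Plvap* (1.79) without WT unwounded replicate 2, and *Plvap* (1.95) without WT wounded replicate 2. *Pecam1* was lost without any 1 labelled GRHL3 KO library, *Kdr* without labelled GRHL3 KO wounded replicate 1 and *Plvap* without replicate 2, where the values held. Leukocyte markers summed to 8.33 and 16.1 CPM in WT unwounded, 15.0 and 36.6 in WT wounded, 10.2 in labelled GRHL3 KO unwounded, and 16.6 and 19.6 in labelled GRHL3 KO wounded, with *Cd74* the most abundant. *Cd74* (log2 fold change 1.15) and *Lyz2* (at least 9.03-fold) were higher in WT wounded, 2 of 6 tested. *Cd74* was lost without WT unwounded replicate 1 (0.53) or WT wounded replicate 2 (0.12) and without any 1 labelled GRHL3 KO library, while *Lyz2* was called whichever library was left out. *Cd3e* was at 0 in the 7 libraries and *Ptprc*, which encodes CD45, at 0 in both WT wounded ones. Fibroblast markers summed to 28.7 and 14.5 CPM in WT unwounded, 19.6 and 47.8 in WT wounded, 11 in labelled GRHL3 KO unwounded, and 26.1 and 37.8 in labelled GRHL3 KO wounded, with *Col3a1* the most abundant and *Col1a2* (1.17) the 1 of 6 tested that was higher, a call lost without WT unwounded replicate 2 (0.96) or WT wounded replicate 2 (0.87). The members summed to 3521 and 3439 CPM in WT unwounded, against 3451 and 3223 in WT wounded. The part of other cell types in the members' values was not tested.

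The next comparison, labelled GRHL3 KO wounded against WT wounded, asks how the members depended on the labelled genotype in wounded epidermis. It shares the WT wounded libraries with the first comparison, so their directions are not independent. At an unadjusted P under 0.05, the secreted proteins *Krtdap* and *Dmkn* and the fused S100 protein *Hrnr* were higher in labelled GRHL3 KO wounded, and *Tchh* was lower. These 4 of 30 members tested stand beside 4.04% of all 14045 genes. None of the 30 passed an adjusted p under 0.05 in edgeR (0% of all genes did), and 0 passed with DESeq2, which had 4 at an unadjusted P under 0.05 (beside 3.96% of all genes), or with edgeR's likelihood ratio test, which had 5 (beside 6.22%). The median log2 fold change of the members was 0.16 beside −0.0092 for all genes, and 0.16 also with *Lce3f* (0 counts in WT wounded, 0 and 15 in labelled GRHL3 KO wounded, at least 2.80-fold higher) at its bound. Over the 16 members with at least 10 counts in each library the median was 0.0420. Without WT wounded replicate 1, the count was 1 (*Flg2*, then at 0 in WT wounded; beside 4.03% of genes) and the median 0.39. Without labelled GRHL3 KO wounded replicate 1 it was 2 (*Dmkn* and *Tchh*; beside 4.7%).

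*Krtdap* and *Dmkn* are neighbours of *Sbsn* on chromosome 7 and encode secreted proteins of the suprabasal layers. *Krtdap* (ENSMUSG00000074199.7, 30787896 to 30791097, plus strand) had 91.6 and 124 CPM in WT unwounded, 58.2 and 97.0 in WT wounded, 64.3 in labelled GRHL3 KO unwounded, and 121 and 117 in labelled GRHL3 KO wounded. Both labelled GRHL3 KO wounded libraries were above both WT wounded ones. The log2 fold change was 0.64 (SE 0.23, n = 2 and 2, edgeR adjusted p = 1). The call was lost without WT wounded replicate 1 (0.32, SE 0.24) and without labelled GRHL3 KO wounded replicate 1 (0.59, SE 0.29), and the value was 1.07 without WT wounded replicate 2. *Dmkn* (ENSMUSG00000060962.12, 30763756 to 30781063, plus strand) had 461 and 571 CPM in WT unwounded, 386 and 502 in WT wounded, 399 in labelled GRHL3 KO unwounded, and 570.4 and 626 in labelled GRHL3 KO wounded. Its groups did not overlap in wounded epidermis either. The log2 fold change was 0.45 (SE 0.17, edgeR adjusted p = 1), and the call was lost without WT wounded replicate 1 (0.27, SE 0.20) and without labelled GRHL3 KO wounded replicate 2 (0.42, SE 0.20). *Sbsn* differed by 0.12 (SE 0.15). *Cdsn*, corneodesmosin, which holds cornified cells together, had 161 and 81 counts in WT unwounded, 119 and 149 in WT wounded, 224 in labelled GRHL3 KO unwounded, and 73 and 120 in labelled GRHL3 KO wounded, a log2 fold change of −0.34 (SE 0.44).

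*Hrnr* and *Tchh* rested on single libraries. For *Hrnr*, with 0 and 7 counts in WT wounded and 69 and 11 in labelled GRHL3 KO wounded, the log2 fold change was 3.57 (SE 1.59, edgeR adjusted p = 1). The call was lost without WT wounded replicate 1 (2.57, SE 1.64), without labelled GRHL3 KO wounded replicate 1 (1.74, SE 2.09), without the labelled GRHL3 KO unwounded library (3.56, SE 1.81) and with the replicate number as a block (3.42, SE 1.93). Without WT wounded replicate 2 the WT wounded group is at 0 for *Hrnr*, so no fold is given. *Tchh* was lower by a log2 fold change of −1.87 (SE 0.47, edgeR adjusted p = 0.848). Without WT wounded replicate 1 it was −0.21 (SE 0.27), and the call was lost. Of 6 inner root sheath markers tested, *Krt25* was at least 26.0-fold lower and *Krt75* lower by a log2 fold change of −1.64 in labelled GRHL3 KO wounded. Both rested on WT wounded replicate 1 as well: without it *Krt25* is at 0 in both groups and *Krt75* at −0.49 (SE 0.93). The *Krt75* call was also lost without labelled GRHL3 KO wounded replicate 1 (−1.04, SE 0.90) and without the labelled GRHL3 KO unwounded library (−1.63, SE 0.77).

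None of the other members passed an unadjusted P under 0.05 between the wounded genotypes in edgeR's quasi-likelihood test or DESeq2, while edgeR's likelihood ratio test also had *Lce3f*. With 1 library left out, *Sprr1b* passed without WT wounded replicate 2 and *Ivl* without labelled GRHL3 KO wounded replicate 2. *Tgm5* had a log2 fold change of −0.15 (SE 0.23), a difference smaller than its error. *Sprr2h* differed by −0.03 (SE 0.56) and *Sprr1b* by 0.10 (SE 0.42). *Sprr2d* differed by −0.61 (SE 1.51). The direction of each turned with the library left out. *Sprr2h* lay between −0.67 and 1.15, *Sprr1b* between −0.47 and 1.05 and *Sprr2d* between −1.59 and 4.24. *Ppl* differed by 0.23 (SE 0.14) and *Casp14* by 0.40 (SE 0.23). *Lor* differed by 1.28 (SE 1.03) and *Cnfn* by 0.86 (SE 1.02), with both labelled GRHL3 KO wounded libraries above both WT wounded ones for each. Leaving out 1 library moved *Lor* between 0.87 and 1.88 and *Cnfn* between 0.46 and 1.42. By role, in the quasi-likelihood test, 0 of 6 scaffold members, 0 of 5 small proline-rich, 0 of 7 late cornified envelope and 0 of 4 enzymes passed an unadjusted P under 0.05, beside 2 of 4 secreted or corneodesmosomal and 2 of 4 fused S100 members. Over all genes tested the share was 4.04%. The 2 fused S100 members, *Hrnr* and *Tchh*, went in opposite directions. Differences between roles were not tested.

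Of 8 suprabasal markers tested outside the member list, *Krt1* (log2 fold change 0.77), *Krt10* (0.87, edgeR adjusted p = 0.459), *Krt77* (0.50) and *Krt78* (0.90) were higher in labelled GRHL3 KO wounded at an unadjusted P under 0.05 and 0 were lower. WT wounded replicate 1, on which the *Krtdap* and *Dmkn* calls rest, was also the lowest library for *Krt1* (1497 CPM, against 2573 in replicate 2) and *Krt10* (1469 against 1986). Without it *Krt1* (0.43) and *Krt10* (0.67) were still called and *Krt78* (0.76, SE 0.38) was not. *Krt78* was also lost without labelled GRHL3 KO wounded replicate 2 (0.61, SE 0.36), and *Krt77* without that library (0.23, SE 0.21) or WT wounded replicate 2 (0.37, SE 0.23). The other 4 did not pass, with *Krt80* (0.34) and *Lypd3* (0.17) fitted higher and *Sfn* (−0.22) and *Calml3* (−0.22) lower. The most abundant of that list, *Sfn*, was read at 3084 and 4081 CPM in WT wounded and 3168 and 2873 in labelled GRHL3 KO wounded. *Asprv1* (1.03), which cuts profilaggrin, was higher and *Padi3* (−3.15) lower among 17 genes of desquamation and filaggrin processing. *Padi3* rests on WT wounded replicate 1, without which it was −0.47, and was also lost without labelled GRHL3 KO wounded replicate 1 (−2.80) or 2 (−3.59). *Klf4* (0.38) and *Cebpa* (0.44) were higher among 14 transcription factors of terminal differentiation, and 0 were lower. *Klf4* was lost without labelled GRHL3 KO wounded replicate 1 (0.13), WT wounded replicate 2 (0.30) or either WT unwounded library (0.38), and *Cebpa* without WT wounded replicate 1 (0.32) or labelled GRHL3 KO wounded replicate 1 (0.35). Of the 5 wound keratinocyte markers, *Krt17* (−0.71) and *Itga5* (−0.84) were lower, and *Itga5* was lost without WT wounded replicate 2 (−0.44) or labelled GRHL3 KO wounded replicate 2 (−0.50). *Asprv1* and *Krt17* were called whichever of the 7 libraries was left out. Of 10 other genes of the epidermal differentiation complex, 7 basal, 6 leukocyte and 6 fibroblast markers tested, 0 passed in either direction, and of 11 endothelial markers *Flt1* (−1.86) was lower, a call lost without WT wounded replicate 1 (−2.02) or 2 (−1.68) or labelled GRHL3 KO wounded replicate 2 (−1.35).

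**Figure D2:**
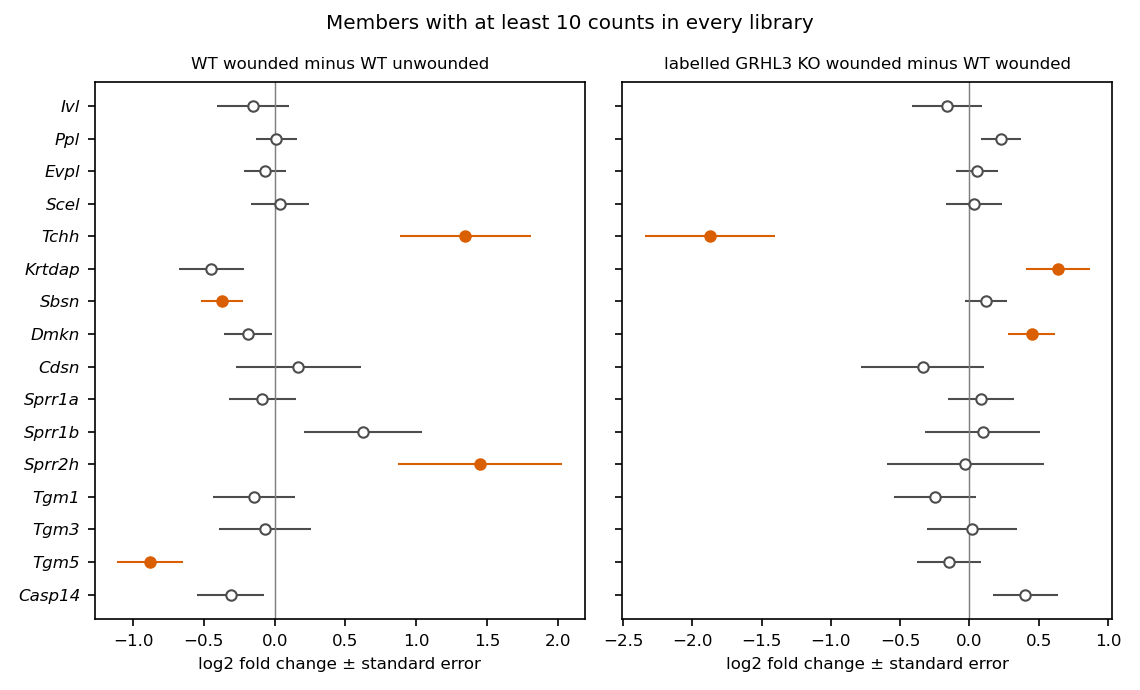
Log2 fold change (horizontal axes, ± standard error) of the 16 members with at least 10 counts in each of the 7 libraries, in both tested comparisons, ordered by role. Filled points have an unadjusted P under 0.05. *Tgm5* (−0.88) and *Sbsn* (−0.37) lie below 0 on wounding, and *Krtdap* (0.64) and *Dmkn* (0.45) above 0 in labelled GRHL3 KO wounded.

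Within the labelled genotype, labelled GRHL3 KO wounded was compared with its 1 unwounded library, so a 2-fold difference of both wounded libraries from it was counted and no test was made. By that rule 7 of 33 members differed, beside 10.2% of the 14765 genes with at least 10 counts. The small proline-rich genes *Sprr1b*, *Sprr2d* and *Sprr2h* and the scaffold genes *Lor* and *Cnfn* were higher in both wounded libraries, and *Flg2* and *Cdsn* were lower. In CPM, *Sprr2h* was 26.7- and 15.7-fold higher, *Sprr1b* 4.31- and 2.54-fold, and *Sprr2d* at least 6.80- and 4.41-fold. *Cnfn* was 4.76- and 4.12-fold higher and *Lor* 4.43- and 2.99-fold. *Flg2* was 3.02- and 39.1-fold lower and *Cdsn* 3.46- and 1.97-fold, and *Cdsn* left the count when library size alone was used for scaling (6 members, beside 10.1% of genes). The injury keratin *Krt6b* went from 4.15 CPM to 645 and 296. Wounding and sex cannot be told apart in these values. With 1 wounded library at a time the count was 16 of 33 (without replicate 1, beside 19.7% of the 14765 genes) or 13 (without replicate 2, beside 20.6%), as a rule on 1 library is easier to meet than a rule on both.

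The labelled GRHL3 KO unwounded library was compared with both WT unwounded libraries in the same way. By the 2-fold rule 6 of 33 members differed from both, beside 10.4% of the 14765 genes. *Flg2* was 38.9- and 72.4-fold higher in CPM, from 407 counts against 12 and 7. *Lce1m* was higher, with 16 counts against 5 and 0 (3.67- and at least 6.64-fold), and *Lce1f* with 4 counts against 0 and 0 (at least 1.53- and 1.66-fold), and over the libraries these 2 late cornified envelope genes had at most 16 and 28 counts. *Sprr2h* was 3.33- and 13.1-fold lower and *Tgm3*, a transglutaminase also of the hair follicle, 2.40- and 2.13-fold lower. *Sprr2d* had 0 counts against 3 and 50, at least 13.4-fold lower than the second. Genotype and sex cannot be told apart here. With a prior count of 5 in place of 2, *Lce1f* and *Sprr2d* left the count (4 members, beside 8.11% of genes), and with 0.5 *Lce1l* joined it (7, beside 12%). Without WT unwounded replicate 1 the count was 14 of 33, beside 22.1% of the 14765 genes, and without replicate 2 it was 9, beside 19.8%.

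Open chromatin near the members was read from peaks, called in 1 library per condition and with no replicate check. The lists held 10769 peaks in WT unwounded, 36872 in WT wounded, 29364 in labelled GRHL3 KO unwounded and 22474 in labelled GRHL3 KO wounded. A peak lay in the gene body or within 5 kb of it for 7 of 42 members in WT unwounded, beside 19.5% of 55413 annotated genes and 34.8% of protein-coding genes. In WT wounded it was 22 members (52.4%, beside 38.8% and 62.3%), in labelled GRHL3 KO unwounded 18 (42.9%, beside 35.2% and 58.5%), and in labelled GRHL3 KO wounded 13 (31.0%, beside 29.4% and 49.2%). The members' shares thus lay below those of protein-coding genes in the 4 conditions and moved with the number of peaks called. A longer gene has a longer window, and gene length was not matched between the members and the other genes. With lists limited to equal length by rank, the counts were 7, 8, 4 and 4 in the same order, beside 19.5%, 17.8%, 18.5% and 18% of all genes and 34.8%, 31.4%, 32.9% and 31.8% of protein-coding genes.

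By role, peaks were near 2 of 6 scaffold members in WT unwounded, 5 in WT wounded, 5 in labelled GRHL3 KO unwounded and 4 in labelled GRHL3 KO wounded, with *Cnfn* in none of the lists. For the 4 enzymes the counts in that order were 2, 4, 4 and 3, and for the 4 secreted or corneodesmosomal members 1, 4, 4 and 1. Small proline-rich members numbered 2, 4, 2 and 1 of 6, late cornified envelope members 0, 4, 2 and 3 of 17, and fused S100 members 0, 1, 1 and 1 of 5 (*Tchh*). Each of the 6 roles had its highest or joint highest count in WT wounded, the list with the most peaks. In total 20 members had no peak in any of the 4 lists, 13 of them late cornified envelope genes. *Sprr1a*, *Casp14*, *Scel* and *Ppl* had one in each list. The matching shares over all genes were not computed, so these counts stand without a background. The 30 members on chromosome 3 span 92080271 to 93449077 (1.37 Mb), which held 9.50 peaks per Mb in WT unwounded, 38.0 in WT wounded, 30.0 in labelled GRHL3 KO unwounded and 27.0 in labelled GRHL3 KO wounded. The genome as a whole held 3.95, 13.5, 10.8 and 8.25 peaks per Mb in that order. The epidermal differentiation complex was thus denser in peaks than the genome average in the 4 conditions. That average covers whole chromosomes, and gene density was not matched.

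**Figure D3:**
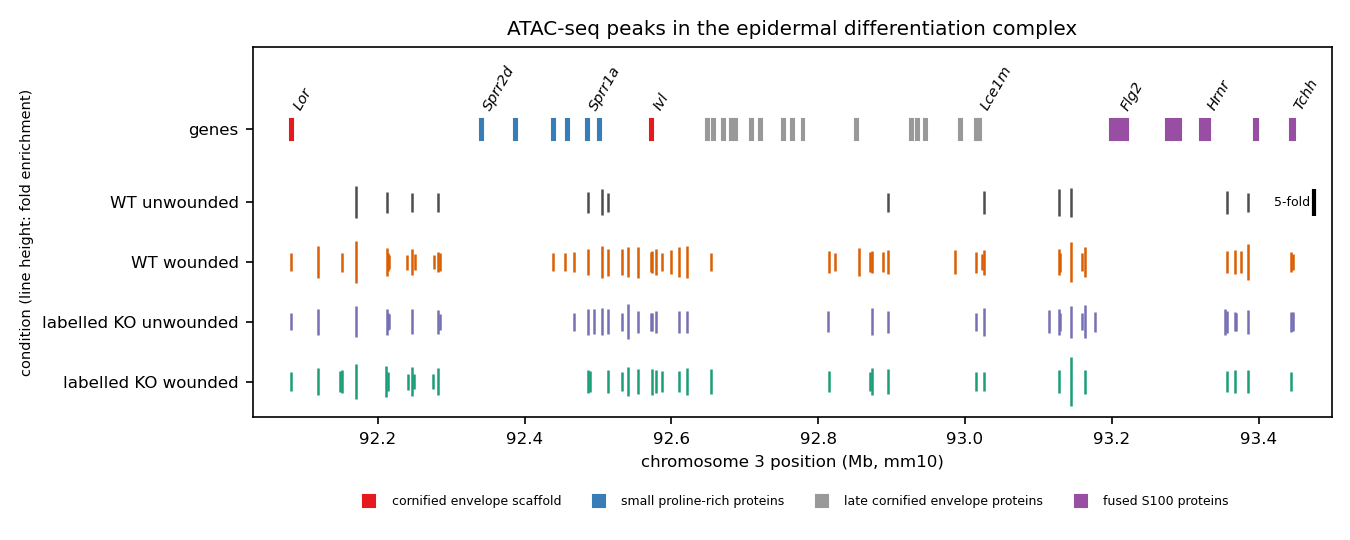
Peaks in 4 conditions (lines, height proportional to fold enrichment over the local background) along the epidermal differentiation complex, with the 30 members there as boxes by role. The horizontal axis is the chromosome 3 position in Mb (mm10), and genes shorter than 4 kb are drawn 4 kb wide. The region held 13, 52, 41 and 37 peaks in WT unwounded, WT wounded, labelled GRHL3 KO unwounded and labelled GRHL3 KO wounded.

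Single members show where these peaks lie. At *Sprr1a*, the peak in WT wounded spanned chr3:92485825-92486711, held the gene's start, and was 4.87-fold above local background (−log10 q 6.89). A peak held that start in the other 3 lists as well, at 3.94-fold in WT unwounded, 4.73-fold in labelled GRHL3 KO unwounded and 4.16-fold in labelled GRHL3 KO wounded. Its neighbour *Sprr1b* had a peak in WT wounded alone among the 4 lists, at chr3:92438571-92438920 over its start (3.34-fold, −log10 q 1.52). *Sprr2d* and *Sprr2h* had none. At *Scel*, which encodes sciellin, a peak over the start at chr14:103513002-103513622 was 7.16-fold above background in WT wounded (−log10 q 14.1), with 5.01-, 6.71- and 5.88-fold peaks in WT unwounded, labelled GRHL3 KO unwounded and labelled GRHL3 KO wounded. *Ivl* had a peak over its start in each list but WT unwounded, at 3.99-fold in WT wounded, 3.38-fold in labelled GRHL3 KO unwounded and 4.78-fold in labelled GRHL3 KO wounded. *Sbsn* had one in each list but labelled GRHL3 KO wounded, at 4.52-fold in WT unwounded, 3.69-fold in WT wounded and 3.43-fold in labelled GRHL3 KO unwounded. *Tgm5*, lower in RNA on wounding, had 4 peaks in WT wounded, the nearest 11 bases from its start, 3 in labelled GRHL3 KO unwounded, the nearest 172 bases from it, 1 in labelled GRHL3 KO wounded and none in WT unwounded. *Tchh* had 2 peaks in its gene body in WT wounded, 2 in labelled GRHL3 KO unwounded and 1 in labelled GRHL3 KO wounded. As each list came from 1 library and their lengths differed, a missing peak is not a test of closed chromatin.

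Promoter sequence, from 250 bases before to 50 bases after the gene's start, was read from RefSeq (GRCm38.p6) for 38 members with 42 promoters, and *Crct1*, *Evpl*, *Lce1f* and *Ppl* were the 4 members without an entry. Both strands were searched for the GRHL motif AACCGGTT, its degenerate form AACNNGTT, which includes the former, and TGANTCA. The last is a degenerate form of the AP-1 motif, with any base at N. AACCGGTT was in 0 of the 42 member promoters, beside 0.146% of 32851 promoters. AACNNGTT was in 2, those of *Tgm5* and *Rptn*, beside 4.20%. TGANTCA was in 15, from 13 genes, beside 7.81%. The *Dmkn* promoters starting at 30763506 and 30763508 overlap and hold the same match, which is thus counted repeatedly. The 13 genes were *Lor*, *Ivl*, *Scel*, *Sprr1a*, *Sprr1b*, *Sprr2d*, *Sprr2h*, *Flg*, *Flg2*, *Rptn*, *Sbsn*, *Dmkn* and *Krtdap*, so they included 4 of the 6 small proline-rich and 3 of the 4 secreted or corneodesmosomal members. A peak overlapped 4 of the 42 member promoters in WT unwounded, 9 in WT wounded, 6 in labelled GRHL3 KO unwounded and 5 in labelled GRHL3 KO wounded, beside 16.3%, 31.4%, 28.7% and 24.3% of all promoters. The matches of *Sprr1b*, *Flg* and *Flg2* read TGAATCA and that of *Rptn* read TGATTCA. A match is a description of letters, not a binding site.

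The promoters below are those of the small proline-rich genes that were steady (*Sprr1a*) or variable (*Sprr1b*, *Sprr2h*) across libraries, of *Krtdap*, higher in labelled GRHL3 KO wounded at an unadjusted P under 0.05, and of *Tgm5*, lower on wounding. Each is 300 bases, 5′ to 3′ on the strand of the gene, and the capitals mark TGANTCA, or AACNNGTT in *Tgm5*.
*Sprr1a*, chr3:92485832-92486131, minus strand: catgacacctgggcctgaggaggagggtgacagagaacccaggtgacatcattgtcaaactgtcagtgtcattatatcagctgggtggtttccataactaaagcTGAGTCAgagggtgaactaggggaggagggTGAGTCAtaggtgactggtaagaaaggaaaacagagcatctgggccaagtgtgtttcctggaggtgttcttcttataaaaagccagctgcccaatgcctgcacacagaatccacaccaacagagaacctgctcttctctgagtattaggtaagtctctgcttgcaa
*Sprr1b*, chr3:92438730-92439029, minus strand: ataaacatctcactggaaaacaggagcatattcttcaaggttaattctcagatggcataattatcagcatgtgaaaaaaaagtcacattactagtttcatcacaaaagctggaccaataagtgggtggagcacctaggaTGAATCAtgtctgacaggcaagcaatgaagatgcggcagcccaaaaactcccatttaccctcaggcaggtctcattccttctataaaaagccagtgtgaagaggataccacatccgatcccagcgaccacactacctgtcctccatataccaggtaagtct
*Sprr2h*, chr3:92385435-92385734, plus strand: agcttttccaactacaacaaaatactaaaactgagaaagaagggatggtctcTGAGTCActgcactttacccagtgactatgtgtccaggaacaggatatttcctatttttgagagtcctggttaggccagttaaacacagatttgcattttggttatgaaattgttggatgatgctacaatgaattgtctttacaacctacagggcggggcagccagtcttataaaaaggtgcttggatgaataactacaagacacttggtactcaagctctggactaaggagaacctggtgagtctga
*Krtdap*, chr7:30787655-30787954, plus strand: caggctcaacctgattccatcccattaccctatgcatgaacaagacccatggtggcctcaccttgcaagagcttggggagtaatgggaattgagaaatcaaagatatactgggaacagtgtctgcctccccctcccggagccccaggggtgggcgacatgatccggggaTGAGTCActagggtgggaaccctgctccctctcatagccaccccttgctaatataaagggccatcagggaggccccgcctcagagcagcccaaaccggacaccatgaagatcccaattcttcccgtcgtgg
*Tgm5*, chr2:121085792-121086091, minus strand: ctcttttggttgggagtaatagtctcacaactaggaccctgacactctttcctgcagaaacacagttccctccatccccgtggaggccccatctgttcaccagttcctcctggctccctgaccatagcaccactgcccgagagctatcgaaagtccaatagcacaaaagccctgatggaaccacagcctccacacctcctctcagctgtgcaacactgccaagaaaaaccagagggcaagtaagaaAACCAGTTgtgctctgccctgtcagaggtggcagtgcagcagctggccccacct

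*Sprr1a* held TGANTCA at bases 105 and 135 of the 300, and its window overlapped a peak in each of the 4 lists. *Sprr1b* held it at base 140 and *Sprr2h* at base 53, with a peak over the window in WT wounded for the former and in none of the lists for the latter. *Krtdap* held it at base 170 and *Tgm5* held AACNNGTT at base 247, each with a peak over the window in WT wounded and in none of the other 3 lists.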

How the data were processed

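RNA-seq was measured in 7 libraries and ATAC-seq in 4. The RNA values the authors deposited are raw counts of reads for each gene symbol, in whole numbers. The submitters' notes name FastQC, kallisto and mm10, while the tallies at the end of each table are those of another kind of counter, so the counting step is not known. The deposited peak lists give fold enrichment (a ratio to the local background of the same library) and −log10 p and q by MACS2. Of the 4 lists, that of labelled GRHL3 KO wounded alone is not marked as called without a control, and whether its calling differed is not known. CPM was computed over counts on genes (0.178 to 0.222 CPM for 3 counts). Differences were tested two-sided in edgeR 4.0.16 (R 4.3.3; TMM, filterByExpr, quasi-likelihood, 1 fit of the 7 libraries in 4 groups, Benjamini-Hochberg over 14045 genes), which was also tested on simulated data. These p-values measure spread between libraries. With 1 library, a 2-fold rule on log2 CPM (prior count 2) was used. Alternatives were RLE scaling, library size alone, DESeq2 1.42.0, the likelihood ratio test, other filters and prior counts, a replicate block, leaving out each library, and other peak cutoffs and windows. Genes named include members with an unadjusted P under 0.05, meeting a 2-fold rule or most abundant in their role, and from the 10 other lists those with an unadjusted P under 0.05 and the most abundant. Further genes are named to complete a role or list, or for comparison. The members and lists were chosen with earlier results of these data known. No set test was made. Gene positions and exon lengths are GENCODE vM21. Python 3.11.15, numpy 2.4.6, pandas 2.3.3 and matplotlib 3.10.9 were used.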

Additional observations from a re-analysis of the deposited data

How the results depend on the processing

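Scaling and test choice left both counts of members at an unadjusted P under 0.05 between 4 and 6, beside 4.83% to 7.95% of genes on wounding in WT and 3.95% to 6.22% between the wounded genotypes. On wounding in WT, testing without a filter gave 9 members at an unadjusted P under 0.05 and 4 at an adjusted p under 0.05 (*Flg2*, *Sprr2h*, *Tchh*, *Tgm5*), beside 5.57% and 0.59% of genes, and leaving out 1 library gave 4 to 5 and 0 to 1, beside 4.47% to 5.61% and 0% to 0.21%. The median log2 fold change was −0.08 (−0.0750) with at least 10 counts in each library, 0.01 (0.0147) with the 4 WT libraries alone, and −0.0789 to 0.5688 leaving out 1 library. With the replicate number as a block, 4 members passed an adjusted p under 0.05 (*Sprr1b*, *Sprr2h*, *Tchh*, *Tgm5*; 1.44% of genes) and the median was −0.0539, but deviations of libraries sharing a number were correlated at 0.154 over 14045 genes for the WT pair and −0.0386 for the wounded pair, and whether libraries with 1 number share an animal is not known. Without WT wounded replicate 1, *Flg2* (−6.16) and *Tchh* (−0.32) reversed (WT wounded is then at 0 for *Flg2*, so its value is no fold), and without another 1 of the libraries they reached 3.56 and 2.09. For labelled GRHL3 KO wounded against WT wounded, no filter gave 1 member at an adjusted p under 0.05 (*Tchh*), beside 0.313% of genes, and leaving out 1 library gave 1 to 5 at an unadjusted P under 0.05 (beside 3.03% to 6.16%), 0 to 1 adjusted (0% to 0.151%), and a median of 0.0904 to 0.3859. That median was 0.0420 with at least 10 counts in each library and 0.0955 with the 4 libraries compared alone. With the block, *Hrnr* (3.42) was no longer called. With at least 10 counts in each library the 2-fold counts were 3 and 2 of 16 members, beside 4.13% and 4.82% of 11127 genes, and leaving out 1 library gave 13 to 16 (19.7% to 20.6% of 14765 genes) and 9 to 14 (19.8% to 22.1%) of 33.

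Members near a peak numbered 11 in WT unwounded with a 10 kb window (beside 23.3% of all genes and 38.5% of protein-coding genes). At a fold enrichment of at least 4 they numbered 10 in WT wounded (29.5% and 49.6%), 7 in labelled GRHL3 KO unwounded (23.2% and 40.7%) and 5 in labelled GRHL3 KO wounded (23.2% and 40.2%), and at a q of at most 0.01 they numbered 8 in labelled GRHL3 KO wounded (26.2% and 44.7%). Lists of equal length gave 8, 4 and 4 in the last 3 conditions, with shares as in the account of peaks. The cause of the other moves was not tested. Where a left-out library left a group with 1, that library was assumed to vary like the rest.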

Other observations

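Other genes of the epidermal differentiation complex, outside the 42 members, were read at low levels. The 19 genes listed summed to 4.45 and 19.5 CPM in WT unwounded, 13.4 and 21.1 in WT wounded, 5.41 in labelled GRHL3 KO unwounded, and 17.3 and 17.4 in labelled GRHL3 KO wounded. *Sprr2a3*, the most abundant of them, had 19 and 250 counts in WT unwounded, 86 and 229 in WT wounded, 11 in labelled GRHL3 KO unwounded, and 202 and 90 in labelled GRHL3 KO wounded. As with *Sprr2h*, labelled GRHL3 KO unwounded was its lowest library and WT unwounded replicate 1 the next. *Tchhl1*, a neighbour of *Tchh*, had 28 counts in WT wounded replicate 1 and 0 in the other 6 libraries.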
